A study of Mus musculus with 2 samples.

Results

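Mir132 and Mir212 are neighbouring microRNA genes on mouse chromosome 11, and they are 2 of the 2202 microRNA genes counted in this profile of the heart. They were chosen by their identifiers, ENSMUSG00000065537.2 for Mir132 and ENSMUSG00000065590.1 for Mir212, which the GENCODE M21 annotation pairs with these symbols. The rule itself uses no measured value, although the genes were picked for description with earlier results of these data known. Small RNA of whole heart came from male B6CASTF1/J mice aged 2 months, an F1 hybrid of C57BL/6J and CAST/EiJ. No treatment is named in the labels, which leaves 1 group of 2 unstressed hearts, and no stressed or hypertrophic heart was compared. The animals are numbered as different males in their descriptions, although the labels give both the same donor identifier. Differences between the libraries may therefore be technical as well as biological.

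MicroRNAs are short RNAs cut from hairpin precursors, and they lower the output of messenger RNAs that pair with their seed, bases 2 to 8. The miR-132 and miR-212 hairpins are known to be made from 1 primary transcript, whose transcription is raised by the factor CREB in neurons. In mouse heart, both microRNAs are known to promote growth of heart muscle cells and to restrain autophagy, with the transcription factor Foxo3 as a target, and their deletion protects against hypertrophy under pressure overload.

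The hairpins are shown first because a count in these data is a count of reads over the whole hairpin gene. Both sequences are from RefSeq on GRCm38.p6, the assembly also called mm10, on the plus strand, with the annotated mature arms in capitals.
Mir132: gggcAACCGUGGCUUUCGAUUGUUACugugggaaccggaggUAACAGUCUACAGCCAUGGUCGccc
Mir212: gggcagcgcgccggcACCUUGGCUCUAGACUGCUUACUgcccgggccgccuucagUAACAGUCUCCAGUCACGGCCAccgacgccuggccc
Mir132 lies at chr11:75173682-75173747 and is 66 bases long, and Mir212 lies at chr11:75173388-75173478 and is 91 bases long. G and C make up 57.6% of the Mir132 hairpin and 69.2% of the Mir212 hairpin. Mir212 comes first along the strand, and 203 bases separate the hairpins. Both lie in the first intron of 1700016P03Rik, a non-coding gene on the same strand, and neither overlaps any of its 3 exons. The nearest protein-coding genes on either side are Hic1, 3868 bases before the cluster, and Ovca2, 2194 bases after it, both on the opposite strand.

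**Figure D1:**
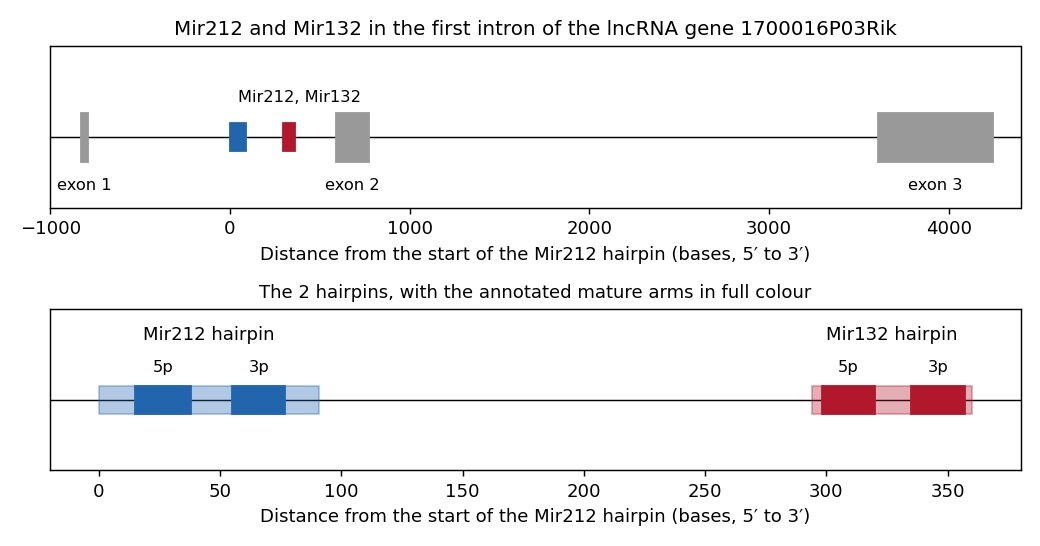
Position of the hairpins as distance from the start of Mir212 in bases. The upper panel shows exons 1 to 3 of 1700016P03Rik in grey with both hairpins between exons 1 and 2, and the lower panel shows the 203 bases between the hairpins and the mature arms on each.

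The mature arms are printed next because they carry what the genes have in common. The seed is in capitals.
miR-132-3p: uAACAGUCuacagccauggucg
miR-212-3p: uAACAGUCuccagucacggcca
miR-132-5p: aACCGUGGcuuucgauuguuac
miR-212-5p: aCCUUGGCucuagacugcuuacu
The 3p arms share the seed AACAGUC, and of the 1738 mature mouse sequences listed by RefSeq, 2 carry it, namely these arms. They are identical at 17 of 22 positions, including the leading 9. Counted from 1 at the 5′ end, with the miR-132-3p base given first, the differences are A10C, C14U, U17C, U20C and G22A. The 5p arms have the seeds ACCGUGG and CCUUGGC, each carried by 1 listed sequence. The counts do not separate the arms, so no level of a single arm is given.

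Stretches shared between the hairpins, and with other microRNA genes, were short. The longest stretch that the 2 hairpins share is 10 bases. Over the other 2201 microRNA genes, on either strand, the longest stretch shared with another gene was 11 bases for Mir132 and 12 bases for Mir212. A read placed at several sites is left out of every gene count in these files, and such reads made up 48.0% of all reads in replicate 1 and 46.4% in replicate 2. A microRNA gene with a copy elsewhere loses reads in this way, and Mir132 and Mir212 share no stretch as long as a mature microRNA with any other microRNA gene. The rest of the genome was not searched.

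Both libraries were deep enough to count Mir132 and Mir212. Replicate 1 held 10362589 reads, of which 3650782 counted towards a microRNA gene on its own strand, and replicate 2 held 10483233, of which 3810675 did. Levels are given in CPM, counts per 1000000 of these gene reads. The floor of 3 counts was 0.822 CPM in replicate 1 and 0.787 CPM in replicate 2. Intervals and floors cover counting error only, since reads copied from the same molecule were not told apart. Known heart cell types were represented in the microRNA counts by some of their genes. Heart muscle Mir208a and Mir499, endothelial Mir126a and smooth muscle Mir143 were well counted in both libraries. Of 7 heart muscle genes listed, 6 reached 2 CPM in both libraries, and of 2 endothelial genes 1 did. Some were low, such as heart muscle Mir133a-2, with 8 counts in each library, and endothelial Mir126b, with 0 and 4.

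Mir132 was at a moderate level in both hearts. Its 1714 counts in replicate 1 came to 469 CPM, with an exact Clopper-Pearson 95% interval of 448 to 492 CPM. Its 1502 counts in replicate 2 came to 394 CPM, with an interval of 374 to 415 CPM. The intervals do not overlap, and replicate 1 was the higher. The mean was 432 CPM ± 53.3 (SD, n = 2). A gene was called detected where each library gave it at least 2 CPM. Of the 337 such genes, 89 had a higher mean, which places Mir132 in the upper part of the detected genes and far below the leading ones. Genes with a copy elsewhere lose reads, as set out above, so the ranks of Mir132 and Mir212 by count may be too high.

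Mir212 was counted in both hearts at a low level. Its 68 counts in replicate 1 came to 18.6 CPM, with a 95% interval of 14.5 to 23.6 CPM. Its 76 counts in replicate 2 came to 19.9 CPM, with an interval of 15.7 to 25.0 CPM. Here the intervals overlap over most of their width. The mean was 19.3 CPM ± 0.932 (SD, n = 2), and 220 of the 337 detected genes had a higher mean. Its lower interval bound was far above the floor in each library, so its detection did not rest on a few reads.

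**Figure D2:**
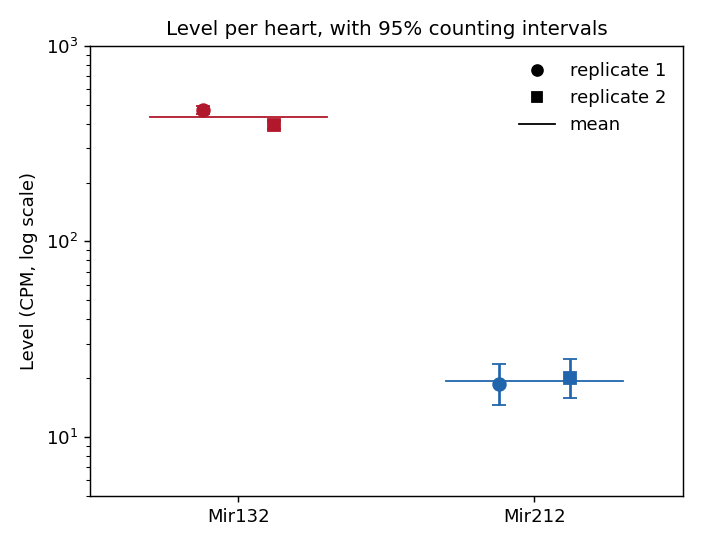
Level of Mir132 and Mir212 in each heart, in CPM on a log scale. Points are libraries, bars are Clopper-Pearson 95% intervals and lines are means, and both hearts place Mir132 (469 and 394 CPM) above Mir212 (18.6 and 19.9 CPM).

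The strand of the reads was the same throughout. For each gene, the count without regard to strand equalled the count on the gene's strand in both libraries. On the opposite strand each had 0 counts in both libraries. The levels of the cluster therefore hold no reads from the other strand.

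**Figure D3:**
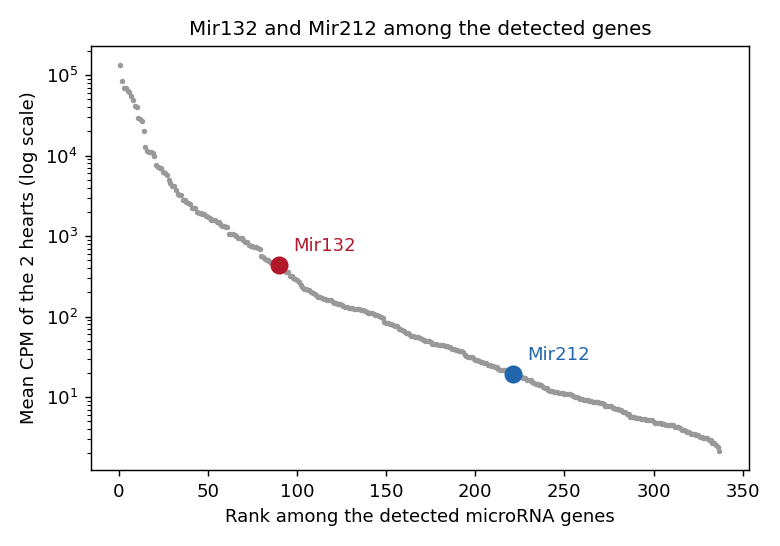
Mean CPM of the 2 hearts, on a log scale, against rank for the 337 genes detected in both. Mir132 has 89 genes above it and Mir212 has 220, so the 2 neighbours stand far apart along the curve. Reads placed at several sites are left out of the counts of every gene.

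Mir132 exceeded Mir212 in both hearts by more than an order of magnitude. The ratio of their counts was 25.2 in replicate 1 (95% interval 19.8 to 32.6) and 19.8 in replicate 2 (15.7 to 25.2). On the log2 scale, with 0.5 CPM added to each level, the ratio was 4.62 in replicate 1 and 4.27 in replicate 2, a mean of 4.44 ± 0.25 (SD, n = 2). Mir132 thus made up 96.2% of the reads of the cluster in replicate 1, with a 95% interval of 95.2 to 97.0%. Its share in replicate 2 was 95.2%, with an interval of 94.0 to 96.2%. The ratio itself was not tested, because an exact permutation of signs over 2 libraries cannot give a two-sided p below 0.5. It is a ratio of counts, and small RNAs can differ in how readily they enter a library.

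No difference between the hearts in how the reads divide between the hairpins was detectable at this depth. The ratio in replicate 2 was 0.784 times that in replicate 1 by the conditional odds ratio, with a 95% interval of 0.553 to 1.11 (two-sided Fisher's exact test, p = 0.172). That interval leaves room for a difference of up to 0.553 times, and the 68 and 76 counts of Mir212 set its width. The test compares the reads of 2 libraries and not conditions. Together the 2 hairpins held 488 CPM in replicate 1 and 414 CPM in replicate 2, a mean of 451 CPM ± 52.3 (SD, n = 2), so the summed level of the hairpins with this shared seed followed Mir132.

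Mir132 differed between the 2 libraries by more than counting error, and Mir212 did not pass the test. All 320 genes past the low-count filter were tested by setting their 2 counts against the library sizes in an exact binomial test. The sizes were scaled by TMM, the trimmed mean of gene ratios. Of the 320 genes, 64.4% differed at a Benjamini-Hochberg adjusted p under 0.05, with 33.8% lower and 30.6% higher in replicate 2, so a call is common between these libraries. Mir132 was lower in replicate 2, with a log2 ratio of -0.27 (95% interval -0.37 to -0.16, adjusted p = 4.84e-07). The test covers counting error only and not the spread between animals or library preparations. Mir212 had a log2 ratio of 0.08 (95% interval -0.41 to 0.58, adjusted p = 0.797). The interval of Mir212 includes the ratio of Mir132, and the Fisher test above is the test of that difference.

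Set against the spread of all genes, both members moved less than the median gene between the hearts. The median absolute log2 ratio of the 320 genes was 0.44, and 105 of them had a smaller one than Mir132 while 35 had a smaller one than Mir212. The edgeR biological coefficient of variation over these genes was 37.0%. The SD of Mir132 was 12.3% of its mean, smaller than that coefficient, where counting alone would give about 2.49% at its mean count. For Mir212 the SD was 4.83% of the mean and counting alone would give about 11.8%. The close values of Mir212 are therefore nearer than its depth can resolve, and they do not show that its true level was the same in both hearts.

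The members were also set beside genes of like level. Within 2 times of the mean of Mir132 there were 34 other tested genes, with a median absolute log2 ratio of 0.30, and 15 of them differed less than Mir132. By the test, 85.3% of these 34 genes were called. Within 2 times of the mean of Mir212 there were 68 other tested genes, with a median of 0.52, and 6 of them differed less than Mir212. Of these 68 genes, 51.5% were called. Mir132 therefore stood near the middle of its neighbours in level, and Mir212 near the most alike of its own.

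**Figure D4:**
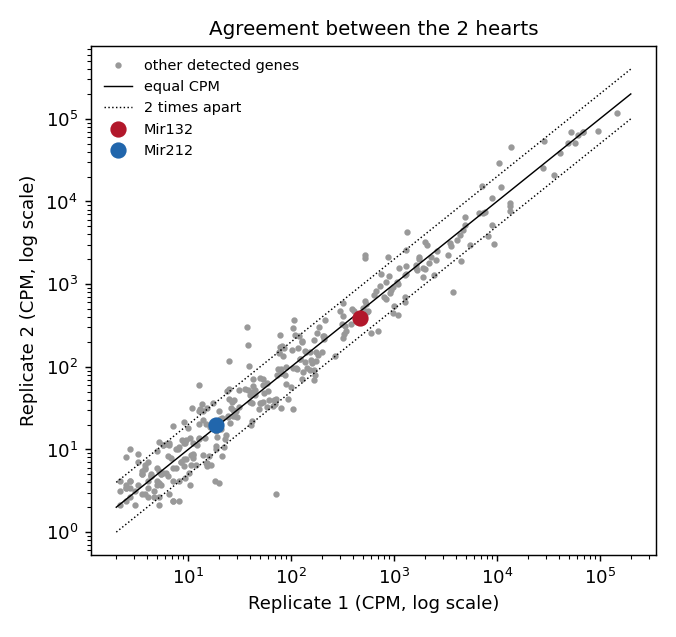
CPM in replicate 2 against CPM in replicate 1 for the 337 detected genes, on log scales, with lines for equal CPM and for 2 times more or less. Mir132 (469 and 394 CPM) and Mir212 (18.6 and 19.9 CPM) both lie near the line of equal CPM.

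The genes most alike in level over the 2 libraries were listed by distance in log2(CPM + 0.5). Closest to Mir132 was Mir351, with 457 CPM in replicate 1 and 380 in replicate 2, followed by Mir872, Mirlet7c-1, Mir144 and Mir25. Closest to Mir212 was Mir7-1, with 17.8 and 21.3 CPM, followed by Mir29b-2, Mir199b, Mir128-2 and Mir672. Of the genes near Mir212, Mir7-1, Mir29b-2, Mir199b and Mir128-2 share at least 18 bases with a microRNA gene elsewhere, as does Mirlet7c-1 near Mir132. Reads that lie wholly within the shared stretch are left out of their counts, so their likeness in counts need not be one of microRNA levels. How many reads were left out in this way was not counted. The likeness is over 2 libraries of 1 tissue and says nothing beyond the level.

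Neighbouring microRNA genes are often cut from 1 transcript, so the ratio of Mir132 to Mir212 was set beside those of other neighbours. Adjacent microRNA genes on the same strand and at most 10 kb apart, detected in both libraries, gave 79 pairs. The pair of Mir132 and Mir212, 21.8 times apart by the mean log2 ratio, had a larger ratio than 66 of the others and a smaller one than 12. The median log2 ratio of the 79 pairs, higher over lower gene, was 2.68. Because each gene had to reach 2 CPM, a pair whose higher gene was itself low could not reach the ratio of the cluster. The median and the number of pairs below the cluster, here and in the sets that follow, partly reflect this limit. How many pairs it held back was not counted. Next above the cluster were Mir30d over Mir30b at 23.0 times, Mir487b over Mir539 at 23.3 times and Mir15b over Mir16-2 at 25.5 times. Next below were Mir17 over Mir18 at 21.3 times, Mir191 over Mir425 at 19.9 times and Mir127 over Mir434 at 18.9 times.

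Among pairs with no such shared stretch, the cluster stood nearer the top. In 49 of the 79 pairs neither gene shares 18 bases with a microRNA gene elsewhere, a limit chosen after the values were seen. Among these 49 pairs, 2 had a larger ratio than Mir132 and Mir212. Named after their values were seen, they were Mir322 over Mir503, at 80.7 times, and Mir154 over Mir496a, at 38.4 times. The median log2 ratio of the 49 pairs was 1.86, against 4.44 for the cluster. Pairs whose higher gene was itself low could not reach that ratio here either, so this rank and median partly reflect the limit of 2 CPM.

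The ratio of the cluster also moved little between the hearts. It moved by 0.35 on the log2 scale, against a median of 0.79 over the 79 pairs, and 59 of the other pairs moved more while 19 moved less. In 10 of the 79 pairs the order of the 2 genes turned between the hearts. All 10 had a mean log2 ratio of 0.67 or less, against 4.44 for the cluster. The order in the cluster did not turn, but at its ratio a turn was hardly possible, so this says nothing about agreement.

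**Figure D5:**
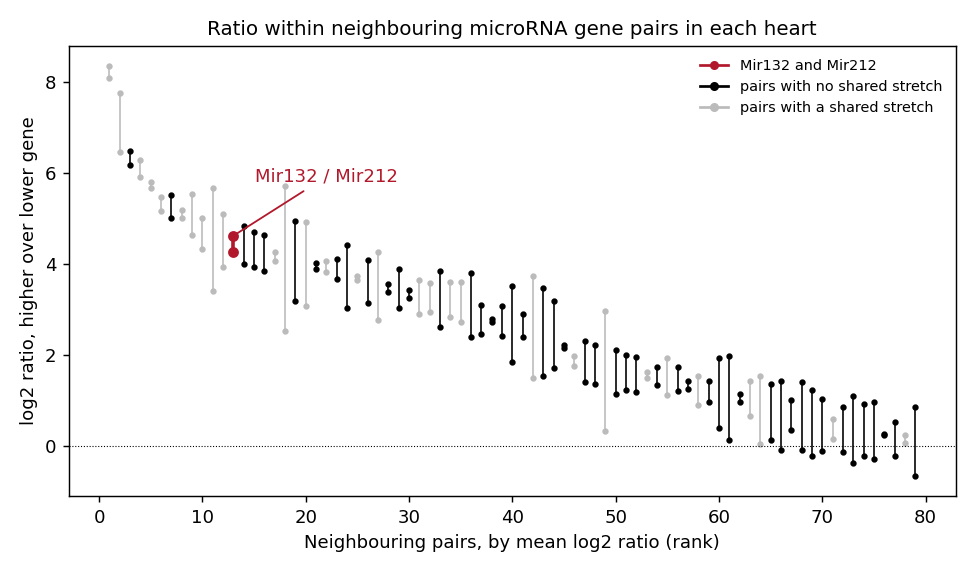
The log2 ratio of the higher over the lower gene in each heart for the 79 neighbouring pairs, sorted by their mean, with a line between the 2 hearts. Mir132 over Mir212 (4.62 and 4.27) is in red, pairs that share no stretch of 18 bases with a gene elsewhere are black and the others grey.

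Neighbours that share a seed were compared in the same way. By the RefSeq table, which does not hold every mature sequence, 20 of the 79 pairs had a seed in common. The cluster had a larger ratio than 14 of the others and a smaller one than 5, and each of those 5 has a gene that shares 18 bases with a gene elsewhere. Mir221 and Mir222, known from blood vessels, whose 3p arms share the seed GCUACAU, were picked from the 20 after their values were seen, and have no shared stretch and 504 bases between the hairpins. Mir221 exceeded Mir222 by log2 ratios of 4.42 in replicate 1 and 3.03 in replicate 2, a move of 1.39, against 0.35 for the cluster. Whether these moves differ was not tested, since there is 1 move per pair.

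The nearest microRNA genes on chromosome 11 were at other levels than the cluster. They were Mir6926, 305193 bases before it, with 2 and 3 counts in replicates 1 and 2, and Gm47300, 144740 bases after it, with 0 counts in both. The nearest detected one was Mir22, 289968 bases after it on the same strand and also linked to hypertrophy. Mir22 was at 13785 CPM in replicate 1 and 45317 CPM in replicate 2, a log2 ratio of 1.70, where Mir132 was lower in replicate 2 and Mir212 did not pass the test.

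Other microRNA genes linked to cardiac growth or remodelling were taken as 2 lists, one of genes reported to promote it and one of genes reported to restrain it. Of 14 promoting genes, 11 were above Mir132 in mean level and 12 above Mir212. Of 16 restraining genes, 8 were above Mir132 and 12 above Mir212. The cluster was thus among the less counted genes with a reported role in promoting growth. The genes for miR-1, miR-133a and miR-199a, among others on the lists, are known to share their mature sequence with another locus, and their counts omit such reads.

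Both lists, chosen with earlier results known, were described between the hearts beside all 320 tested genes, of which 30.6% were higher and 33.8% lower in replicate 2, with a median log2 ratio of 0.02. Of the promoting list, 12 passed the filter, of which 8 were higher and 4 lower in replicate 2, with a median log2 ratio of 0.45. Higher were Mir214 (log2 ratio 2.11), Mir22 (1.70), Mir208a (1.67), Mir222 (0.99), Mir34a (0.66), Mir195a (0.48), Mir27b (0.42) and Mir23a (0.07). Lower were Mir21a (-1.25), Mir221 (-0.40), Mir155 (-0.18) and Mir499 (-0.07), of which Mir499 had the opposite sign where no filter was applied. Mir499 also lost its call without the filter, at 10 CPM or more in each library and in the count without strand. Of these 12 genes, 3 had a smaller absolute log2 ratio than the 0.27 of Mir132, as did 32.8% of all 320 genes.

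The restraining list held genes that moved with Mir132 and genes that moved against it. Of its 14 genes past the filter, 9 were lower and 2 higher in replicate 2, with a median log2 ratio of -0.29, against the same shares and median over all genes. Lower were Mir145a (log2 ratio -0.92), Mir1a-2 (-0.82), Mir26b (-0.79), Mir30a (-0.62), Mir223 (-0.50), Mir378a (-0.35), Mir541 (-0.32), Mir98 (-0.26) and Mir150 (-0.26). Higher were Mir101a (2.25) and Mir29a (0.43). The 3 not called were Mir133a-1, Mir133b and Mir185. Of these, Mir185 had the opposite sign under DESeq2 size factors and gained a call where no filter was applied. Of the 14, 5 had a smaller absolute log2 ratio than Mir132, against 32.8% over all genes.

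Whole heart holds many cell types, and fewer cells of a type cannot be told apart from less RNA per cell. The miR-132 family is known from neurons, endothelial cells, pericytes and leukocytes as well as heart muscle. The summed level of the neuronal list was 309 CPM in replicate 1 and 291 CPM in replicate 2, below Mir132 alone in each library. Of its 9 genes, Mir124a-1, Mir124a-2, Mir124a-3 and Mir9-2 had 0 counts in both libraries. Copies elsewhere in the genome, however, keep reads of these genes out of the counts. Mir128-2 also shares at least 18 bases with a microRNA gene elsewhere. The neuronal sum may thus be too low for a like comparison with Mir132. The sum of the endothelial list was 52212 CPM in replicate 1 and 70229 CPM in replicate 2, with Mir126a as nearly all of it. The smooth muscle and pericyte list summed to 54611 and 53284 CPM, and the heart muscle list to 4032 and 6942 CPM.

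The leukocyte list moved the same way as Mir132. Its sum was 10633 CPM in replicate 1 and 8667 CPM in replicate 2. In replicate 2, 5 of its 5 genes were lower, where 33.8% of all tested genes were lower. The median log2 ratio of the 5 was -0.26. Of these 5, Mir155 is also on the promoting list, and Mir150 and Mir223 are also on the restraining list. Mir145a, Mir208a and Mir499 likewise stand on a growth list and a cell type list, so the lists are not independent. The neuronal and smooth muscle sums above were also lower in replicate 2. So was the erythroid sum, at 3222 CPM in replicate 1 and 2960 CPM in replicate 2. The liver gene Mir122 was lower as well, at 142 and 97.9 CPM. Within these sums the genes were split. By the test, 1 neuronal gene was higher and 1 lower among 3 tested. Of the smooth muscle genes 1 was higher and 1 lower, and of the erythroid genes 2 were higher and 1 lower. Mir9-3, not tested, went from 27.7 CPM in replicate 1 to 0.262 CPM in replicate 2, more than the fall in the neuronal sum. The endothelial and heart muscle sums were higher in replicate 2. Of the heart muscle list, 2 genes were higher and 2 lower by the test among 5 tested, and Mir208a, at 1329 and 4265 CPM, made most of the change in the sum. The part of any cell type in the level of Mir132 or Mir212, or in the difference of Mir132 between the hearts, was not tested.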

How the data were processed

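The authors deposited raw read counts per microRNA gene, 1 file per library, with 3 count columns (without strand, on the gene's strand, on the opposite strand). Per the accompanying text, reads were placed on mm10 with GENCODE M21; the aligner and its settings are not given in the sources used here. The 4 rows that name no gene held 64.8% and 63.6% of reads and were left out. CPM was computed from the gene-strand counts. The binomial tests used edgeR 4.0.16 TMM sizes after filterByExpr, adjusted over all genes. Only the binomial test was run on simulated counts. These held counting error and set changes, and none of the further spread seen between the 2 libraries. With 1 group there was no contrast between conditions. DESeq2 1.42.0 size factors, plain totals, other filters, the count without strand, other denominators, pseudocounts, distances and detection limits, and each replicate left out, were the alternatives. Named genes are the members, the 5 nearest in level to each, the 3 neighbour pairs next above and below, the nearest microRNA genes, genes sharing a seed, and the listed hypertrophy genes. Genes named outside this rule are said to be so or mark a cell type. Members and lists were chosen with earlier results of these data known. All 2202 identifiers matched GENCODE M21. Python 3.11.15, scipy 1.17.1 and R 4.3.3 were used.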

Additional observations from a re-analysis of the deposited data

How the results depend on the processing

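The direction of Mir132 and Mir212 between the hearts and the side of the threshold held under each scaling, filter and strand setting run, with log2 ratios of -0.29 to -0.19 for Mir132 and 0.06 to 0.16 for Mir212. The log2 ratio of Mir132 to Mir212 was 4.41 to 4.48 under the other pseudocounts and the count without strand, and 4.27 to 4.62 with 1 replicate left out. Levels scale with the denominator. Without regard to strand Mir132 was at 560 CPM and Mir212 at 25.0 CPM. Without the most abundant gene in the denominator they were at 499 and 22.2 CPM. Over all uniquely mapped reads Mir132 was at 380 CPM and Mir212 at 17.0 CPM. The neighbour counts depend on which pairs are kept. The cluster exceeded 42 of 53 pairs within 1 kb, 39 of 50 pairs at 10 CPM or more, and, in alternatives chosen after seeing the data, 14 of 20 pairs that share a seed. Its ratio moved more than that of 6 of the 20 pairs that share a seed, and more than that of 9 of the 49 pairs with no shared stretch. Each total in these neighbour counts includes the cluster's own pair. The 68 and 76 counts of Mir212 limit the precision of every ratio given. No paired analysis was possible because the libraries form 1 group.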
